A study of Cavia porcellus with 35 samples.

Results

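The reversal of the betamethasone response between generations was read as the interaction of treatment with generation in the medial prefrontal cortex (mPFC) of 16 juvenile female guinea pigs (Cavia porcellus), out of the 35 animals of the series. The females belonged to the F1 generation, which was exposed in the womb, or to the F2 generation, and 4 control and 4 treated animals were sequenced in each. In the labels the treated animals are called Beta. They are called sGC animals here, for synthetic glucocorticoid. Dams of the treated line had received betamethasone late in gestation and dams of the control line saline, and no other treatment or allele is named for any group. F2 animals were daughters of F1 males mated with non-experimental females, so they descended from the treated dams through their fathers. All animals were collected on postnatal day 40, 1 female per litter entered the set, and animals were chosen for the amount and quality of their RNA. Of the symbols listed in both tables, 11196 in number, 11166 passed a filter on low counts and were tested. The comparison asks whether the difference between sGC and control animals is the same in the exposed generation as in the next.

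Glucocorticoids cross into the fetal brain and act through the glucocorticoid receptor NR3C1 and the mineralocorticoid receptor NR3C2, which bind DNA and change transcription in neurons and glia. The mPFC holds excitatory pyramidal neurons in layers, inhibitory GABAergic interneurons, myelinating oligodendrocytes, astrocytes and microglia, and it takes part in the control of locomotor activity and of the stress axis. Myelination and synapse maturation are still under way in a juvenile cortex.

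Each animal had 12819964 to 17052339 reads assigned to genes, and the totals of sGC and control animals did not differ beyond their spread (exact two-sided permutation test, n = 4 per group, p = 0.943 in F1 and 0.429 in F2, where 0.0286 is the smallest p possible). Levels are given as TMM-normalized CPM (read counts scaled to a common library size), in the order of animal number 1 to 4 of a group. Some F1 libraries stood apart. SLC17A7, the vesicular glutamate transporter of cortical pyramidal neurons, was at 1009, 319, 172 and 242 CPM in the F1 controls and at 1331, 1252, 898 and 3620 CPM in the F1 sGC animals. All 8 F2 animals lay between 1253 and 1512 CPM, so that F1 controls 2, 3 and 4 were far below every other animal and F1 sGC animal 4 far above. CAMK2A, also a gene of excitatory neurons, was at 1503 to 1892 CPM in the F1 controls and at 1603 to 2536 CPM in the other animals, so that these ranges overlapped. For all genes together and for some lists, results are therefore also given without F1 controls 2 and 3, or without F1 controls 1 and 4. F1 controls 1 and 4 had the highest levels of striatal marker genes. These alternatives were chosen after seeing the data. A list or gene given without them may rest on these animals as well. The extraction protocol in the labels names the paraventricular nucleus, whereas the source is given as prefrontal cortex. AVP and OXT, the defining hormones of that nucleus, were at 0.464 to 1.54 and at 0.844 to 3.87 CPM, and SIM1, a transcription factor of the same nucleus, was at 8.81 to 14.97 CPM in every animal. Summed over the 5 genes tested of 10 listed for this region, levels were 20.3 to 25.9 CPM, and the tissue of origin was not tested further.

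An interaction with an FDR under 0.05 (edgeR's quasi-likelihood test with Benjamini-Hochberg adjustment) was found for 1536 genes, or 13.8% of those tested. The difference between sGC and control animals was higher in F2 than in F1 for 754 genes (6.75%) and lower for 782 (7%). Selecting genes for a difference raises the share with opposite signs, which was 89.1% of these genes beside 54.3% of all genes tested. A gene is called reversed here where, in addition, each generation had an unadjusted p under 0.05 and the 2 signs were opposite. Reversed genes numbered 391 (3.5%), of which 212 were lower in F1 and higher in F2 sGC animals (1.9%) and 179 were higher in F1 and lower in F2 (1.6%). Most other genes with an interaction, 1017 in number, had an unadjusted p under 0.05 in F1 and not in F2, and 126 had one in F2 only. No gene had an FDR under 0.05 in each generation with opposite signs, against 397 with an unadjusted p under 0.05 in each. The F2 comparison of the same fit gave only 1 gene with an FDR under 0.05 and 1576 with an unadjusted p under 0.05, so that direction in F2 rests on unadjusted p-values. DESeq2, used as another tool, gave 1866 genes with an interaction.

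**Figure D1:**
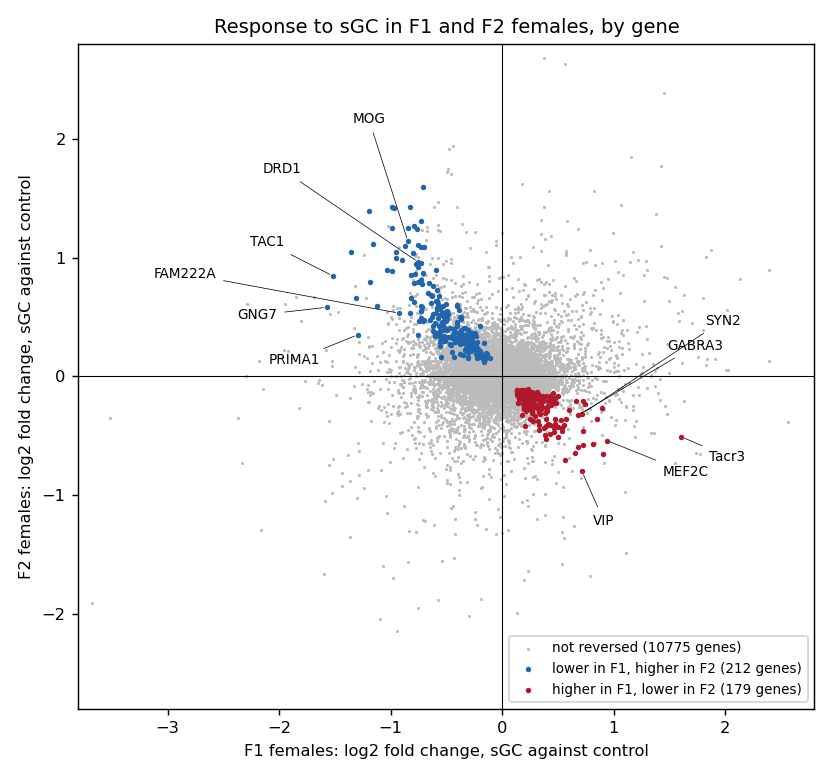
Log2 fold change of sGC against control animals in F1 females (horizontal) and F2 females (vertical), 1 point per gene. The 212 genes lower in F1 and higher in F2 are blue and the 179 genes of the opposite direction red, and all other genes tested are grey. By definition no coloured point lies where the signs are the same. GNG7 lies farthest to the left among the blue points and Tacr3 farthest to the right among the red.

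Reversed genes that were lower in F1 had larger differences than those that were higher in F1. Their median log2 fold changes were -0.51 in F1 and 0.40 in F2, against 0.27 and -0.21 for the others, beside -0.02 and 0.01 over all genes tested. These values chose the genes and are given as a description. Every sGC animal lay beyond every control in both generations, in opposite directions, for 91 of the 391 reversed genes, beside 131 of all genes tested (1.17%). Of all genes tested, 23.1% had groups that did not overlap in F1 and 8.13% in F2, in either direction. The 5 genes of each direction with the largest interaction among those 91, at a mean level of at least 5 CPM, are described next.

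FAM222A had levels of 32.3, 41.9, 34.7 and 31.1 CPM in the F1 controls and 20.3, 16.4, 18.3 and 18.9 CPM in the F1 sGC animals. The F2 controls were at 19.6, 16.3, 16.3 and 15.9 CPM and the F2 sGC animals at 22.03, 21.6, 29.2 and 25.7 CPM. All F1 sGC animals lay below all F1 controls and all F2 sGC animals above all F2 controls (log2 fold change -0.92 (SE 0.11) in F1 and 0.53 (SE 0.12) in F2, interaction 1.46 (SE 0.16), FDR = 0.000511 in edgeR's quasi-likelihood test). PRIMA1, which anchors acetylcholinesterase in the membrane of neurons, was between 20.9 and 33.5 CPM in F1 controls and between 9.57 and 13.8 CPM in F1 sGC animals. In F2 it was at 14.5, 11.9, 14.3 and 11.3 CPM in controls and at 18.6, 15, 16.8 and 15.8 CPM in sGC animals, a smaller gap (log2 fold change -1.29 (SE 0.14) in F1 and 0.35 (SE 0.14) in F2, interaction 1.64 (SE 0.20), FDR = 0.000730). The remaining genes of this direction were MOB3B, a MOB family protein, TMC6, a transmembrane channel-like protein, and CDK2AP2, a partner of the cell cycle kinase CDK2. Their interactions were 1.18 (FDR = 0.00951), 1.00 (FDR = 0.0163) and 0.95 (FDR = 0.00923) on the log2 scale.

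In the opposite direction the largest interaction was that of Tacr3, the receptor of neurokinin B. In the F1 controls Tacr3 was at 54.2, 60.3, 42.7 and 46.8 CPM, and in the F1 sGC animals at 142, 194, 80.9 and 205 CPM. Its level was 156, 223, 205 and 177 CPM in the F2 controls and 148, 132, 109 and 146 CPM in the F2 sGC animals. The F1 sGC animals varied widely, from 80.9 to 205 CPM, and all were above the F1 controls (log2 fold change 1.61 (SE 0.22) in F1 and -0.51 (SE 0.21) in F2, interaction -2.11 (SE 0.31), FDR = 0.00163). MEF2C, an activity-dependent transcription factor of cortical neurons that microglia also express, was at 281, 161, 161 and 208 CPM in F1 controls and at 347, 289.5, 402 and 516 CPM in F1 sGC animals. The F2 controls were at 478, 458, 570.2 and 477 CPM and the F2 sGC animals at 331, 398, 329 and 307 CPM, so the groups were separate in each generation, with the F2 controls above all F1 controls (log2 fold change 0.94 (SE 0.18) in F1 and -0.54 (SE 0.18) in F2, interaction -1.48 (SE 0.25), FDR = 0.00334). SYN2, a synapsin that tethers synaptic vesicles, was at 510.3, 489, 537 and 567 CPM in F1 controls and 916, 927, 792 and 823 CPM in F1 sGC animals. It was at 886, 1060, 998 and 972 CPM in F2 controls and 863, 784, 676 and 826 CPM in F2 sGC animals, where the groups differed by less (log2 fold change 0.72 (SE 0.08) in F1 and -0.31 (SE 0.08) in F2, interaction -1.03 (SE 0.12), FDR = 0.000511). KCNK10, a background potassium channel, and C5orf49 completed this set with interactions of -1.21 (FDR = 0.00248) and -1.30 (FDR = 0.00319). C5orf49 was at 89.8 to 177 CPM in F1 and at 2.73 to 8.06 CPM in F2. Whether the 2 deposited tables were counted in the same way is not given, so this gap cannot be told apart from generation. Over all genes tested, the control means of 155 differed by more than 4-fold between the tables.

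**Figure D2:**
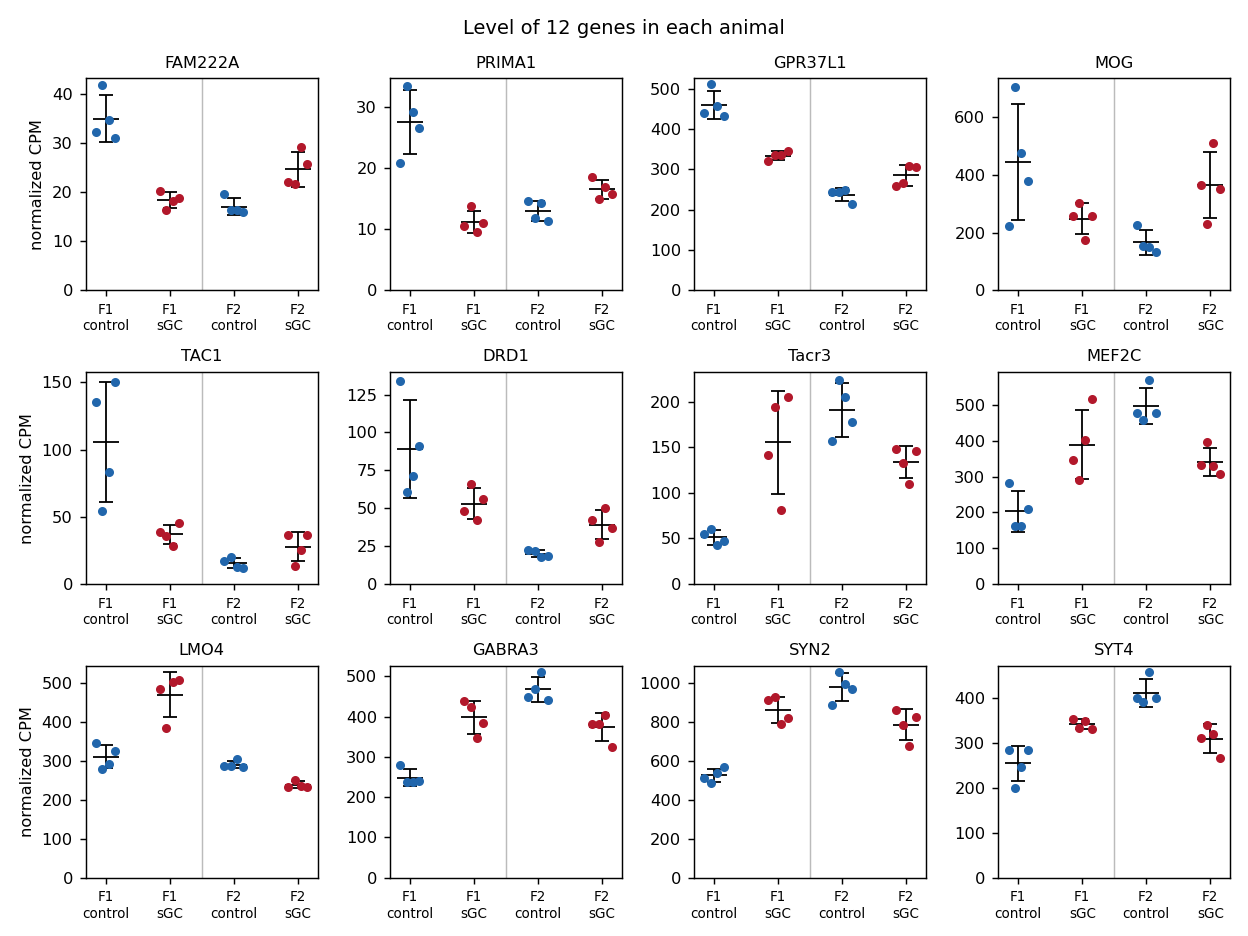
Normalized CPM of 12 genes in each of the 16 animals, with the mean and SD of the 4 animals of a group in black, controls in blue and sGC animals in red. The upper genes and the left ones of the middle row (FAM222A, PRIMA1, GPR37L1, MOG, TAC1, DRD1) go down in F1 and up in F2, and Tacr3, MEF2C, LMO4, GABRA3, SYN2 and SYT4 go up in F1 and down in F2. MOG and DRD1 overlap between the F1 groups.

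Genes of mature oligodendrocytes and myelin held more reversed genes than any other list. With all 16 animals, the counts of this and every later list stand beside 13.8% of all genes tested with an interaction and 3.5% reversed. Of 26 tested, from 30 listed, 17 had an interaction, all of them higher in F2, and 10 were reversed, which were MOG, MAG, CNP, CLDN11, FA2H, SOX10, MYRF, PLLP, TMEM125 and CMTM5. All 26 genes had a log2 fold change below 0 in F1 and 24 had one above 0 in F2, with medians of -0.62 and 0.80, beside -0.02 and 0.01 over all genes tested. MOG stood at 222, 706, 475 and 378 CPM in the F1 controls and at 257, 304, 174 and 256 CPM in the F1 sGC animals. In F2, its levels were 228, 153, 151 and 131 CPM in the controls and 366, 229.7, 509.5 and 352 CPM in the sGC animals. MOG, a surface glycoprotein of the myelin sheath, overlapped between the F1 groups, since control 1 was among the sGC animals, and was separate in F2 (log2 fold change -0.84 (SE 0.30) in F1 and 1.14 (SE 0.30) in F2, interaction 1.98 (SE 0.42), FDR = 0.00988). The F1 overlap was shared by all 10 reversed genes. HAPLN2, a link protein of the nodes of Ranvier, and ANLN, an actin-binding protein of myelin, had larger changes in F2 than in F1, with log2 fold changes of -0.46 in F1 and 1.70 in F2 for HAPLN2 and of -0.40 in F1 and 1.42 in F2 for ANLN. Their interactions were 2.17 (FDR = 0.00854) and 1.82 (FDR = 0.0113). MYRF and SOX10, transcription factors that drive myelin genes, were at -0.73 in F1 and 1.09 in F2 and at -0.73 in F1 and 0.55 in F2 on the log2 scale.

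The myelin result leaned on F1 controls 2 and 3. The summed level of the 26 genes was 5955, 18880, 12270 and 9764 CPM in the F1 controls and 4704 to 9281 CPM in the F1 sGC animals, and it was 4522 to 6587 CPM in F2 controls and 6459 to 13830 CPM in F2 sGC animals. F1 control 1 thus lay within the range of the sGC animals of F1. Without F1 controls 2 and 3, 1 of the 26 genes had an interaction, at a median of 0.99 against 1.54 with all animals, and without F1 controls 1 and 4, 25 had one. Without F1 controls 2 and 3, the counts of this and later lists stand beside 440 of 11185 genes tested with an interaction. Without F1 controls 1 and 4, they stand beside 1967 of 11181. In punches of bulk tissue, fewer cells of a type and less RNA per cell cannot be told apart, here and for every list that follows. Of 16 tested genes of oligodendrocyte precursors, 7 had an interaction, all higher in F2. Their medians were -0.59 in F1 and 0.10 in F2, where 11 genes were above 0 and 5 below, and OLIG1, OLIG2, NKX2-2 and BCAS1 were reversed. OLIG2, which specifies the lineage, was at -0.75 in F1 and 0.47 in F2, with an interaction of 1.22 (FDR = 0.0147). Its level was 66.8 ± 26.2 CPM in F1 controls (SD, n = 4) and 253 ± 34.2 CPM in F2 controls, a gap between the tables that cannot be told apart from generation. NKX2-2, a transcription factor of differentiating precursors, was at -0.82 in F1 and 0.53 in F2, with an interaction of 1.36 (FDR = 0.0171), whereas CACNG4 was lower in F1 alone, with -0.89 in F1 and -0.03 in F2. Only 1 of the 16 had an interaction without F1 controls 2 and 3.

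Astrocyte genes had smaller median differences than myelin genes. Of 22 tested, 11 had an interaction, all higher in F2, and the medians were -0.36 in F1 and 0.13 in F2. The reversed genes were GPR37L1, KCNJ10 and FGFR3, and in all of them the groups were separate in both generations. GPR37L1 had levels of 440.5, 511, 457 and 433 CPM in the F1 controls and 321, 335, 335 and 346 CPM in the F1 sGC animals. The F2 controls were at 244, 243, 248 and 214 CPM and the F2 sGC animals at 258, 267, 307 and 306 CPM. GPR37L1, an astrocyte receptor, was lower in all F1 sGC animals and, over a narrower gap, higher in all F2 sGC animals (log2 fold change -0.46 (SE 0.07) in F1 and 0.26 (SE 0.07) in F2, interaction 0.72 (SE 0.10), FDR = 0.00129). KCNJ10, the channel by which astrocytes take up potassium, was at -0.45 in F1 and 0.32 in F2, and the growth factor receptor FGFR3 at -0.29 in F1 and 0.36 in F2 on the log2 scale. The adhesion protein HEPACAM and NDRG2 were lower in F1 and did not differ beyond an unadjusted p of 0.05 in F2, with interactions of 0.64 (FDR = 0.00475) and 0.57 (FDR = 0.00587). Without F1 controls 2 and 3, 5 of the 22 genes had an interaction. Microglial genes also had interactions, 7 of 15 tested, all higher in F2, but none was reversed. Medians were -0.47 in F1 and 0.09 in F2, and the summed level of the 15 genes was 613 to 739 CPM in F1 controls, 497 to 530 CPM in F1 sGC animals, 586 to 648 CPM in F2 controls and 505 to 776 CPM in F2 sGC animals. The F1 groups did not overlap while the F2 sGC animals spanned the F2 controls. Among the named genes, the integrin ITGB2 had an interaction of 0.78 (FDR = 0.0217) and the receptors GPR84 and GPR34 of 1.07 (FDR = 0.0258) and 0.79 (FDR = 0.0293). The microglial count ranged from 1, without F1 control 2, F2 control 3 or F2 sGC animal 4, to 10 without F2 sGC animal 1, was beyond 1.5 times in 11 of 16 such fits and was 0 without F1 controls 2 and 3 together. For endothelium and pericytes, 0 of 20 tested genes had an interaction in edgeR's test or DESeq2, 3 had an unadjusted p under 0.05, 1 passed without F1 sGC animal 3, and CLDN5 of the blood-brain barrier was at 0.33 (FDR = 0.0762).

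**Figure D3:**
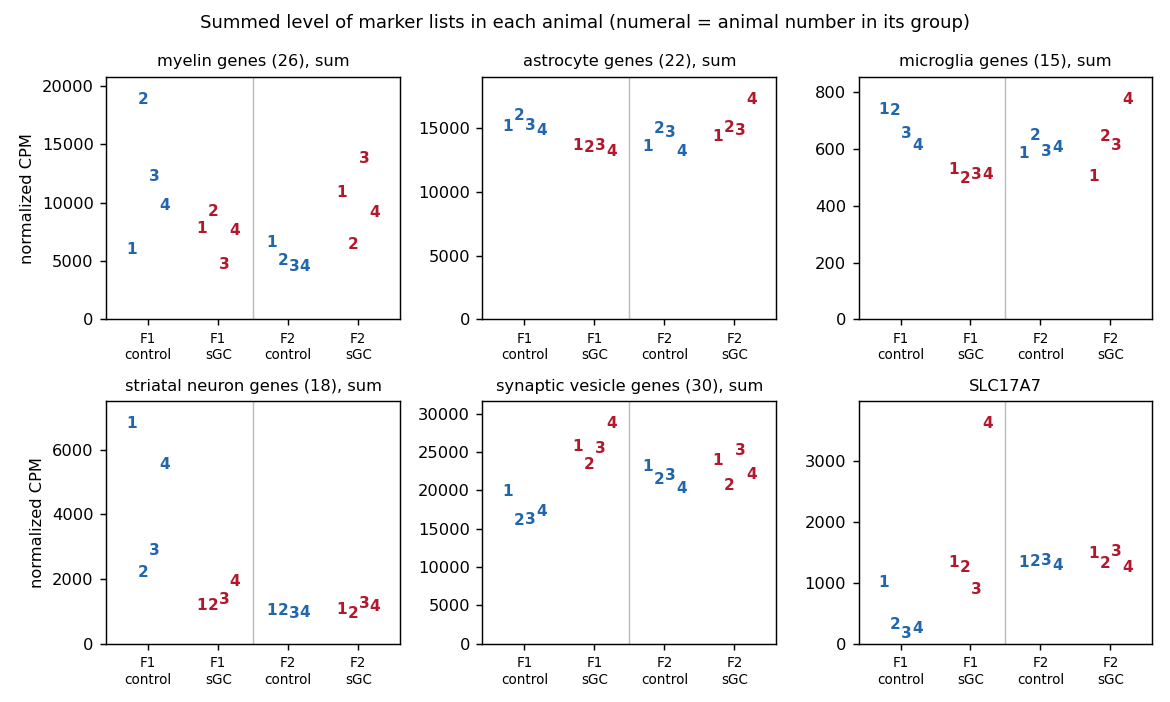
Summed normalized CPM of 5 marker lists, and the level of SLC17A7, in each animal, where the numeral is the animal's number in its group, controls are blue and sGC animals red. F1 control 2 is highest for myelin, followed by F2 sGC animal 3 and F1 control 3, F1 controls 1 and 4 are highest for striatal genes, and F1 controls 2, 3 and 4 are lowest for SLC17A7.

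Genes that mark striatal projection neurons had the largest median interaction, 1.74. These neurons lie below the cortex and are not cells of the mPFC. Of 18 tested genes, from 23 listed, 10 had an interaction, all higher in F2, all 18 were lower in F1 sGC animals, and the medians were -1.44 in F1 and 0.03 in F2. DRD1, TAC1 and GNG7 were reversed. In the F1 controls DRD1 was at 134, 60.6, 71.3 and 90.8 CPM, and in the F1 sGC animals at 47.9, 65.7, 42.2 and 56.2 CPM. Its level was 22.1, 21.9, 17.8 and 18.4 CPM in the F2 controls and 42.2, 27.4, 49.8 and 36.8 CPM in the F2 sGC animals. DRD1, a dopamine receptor that pyramidal neurons of the deep layers also carry, overlapped in F1 and was separate in F2 (log2 fold change -0.75 (SE 0.22) in F1 and 0.96 (SE 0.23) in F2, interaction 1.71 (SE 0.32), FDR = 0.00503). The tachykinin precursor TAC1 was at 136, 54.3, 83.5 and 150.2 CPM in F1 controls and 38.9, 35.5, 28.4 and 45.5 CPM in F1 sGC animals, and at 17.1, 20.4, 12.5 and 12.1 and 36.4, 13.1, 25.4 and 36.2 CPM in the F2 groups, which overlapped (log2 fold change -1.51 (SE 0.31) in F1 and 0.84 (SE 0.33) in F2, interaction 2.36 (SE 0.46), FDR = 0.00641). GNG7, a G protein subunit coupled to dopamine receptors, had a log2 fold change of -1.57 in F1 and 0.58 in F2 and an interaction of 2.15 (FDR = 0.00246). The summed level of the 18 genes was 6815, 2194, 2871 and 5557 CPM in F1 controls, 1174 to 1918 CPM in F1 sGC animals and 928 to 1252 CPM in all F2 animals, so every F1 control was above every other animal. DRD2, a defining marker, was at 165, 13.5, 23.0 and 181 CPM in the F1 controls, at 0.924 to 24.6 CPM in F1 sGC animals and at 0.215 to 4.51 CPM in F2. Leaving out F1 controls 1 and 4 left 6 genes with an interaction and a median of 0.82, and each of 3 other animals, F1 sGC animal 1, F2 control 3 and F2 sGC animal 4, also left 6 when it alone was omitted. The part of striatal tissue in the interactions of other genes was not tested.

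Genes of synaptic vesicles and transmitter release moved in the other direction. Of 30 tested, 17 had an interaction, all lower in F2, and 28 were higher in F1 sGC animals, with medians of 0.53 in F1 and 0.01 in F2. The median of F2 was thus near that of all genes, and only SYN2, SYT4, SYT17, SH3GL2 and DOC2A were reversed. SH3GL2, an endophilin that bends the membrane during vesicle recycling, was at 258, 277, 271 and 270.0 CPM in F1 controls and 467, 503, 372 and 431 CPM in F1 sGC animals. Its F2 groups, at 424, 505, 472 and 451 and 444, 383, 392 and 384 CPM, overlapped through sGC animal 1 and control 1 (log2 fold change 0.72 (SE 0.08) in F1 and -0.21 (SE 0.08) in F2, interaction -0.93 (SE 0.12), FDR = 0.000849). SYT4, a synaptotagmin, was separate in both generations and at 0.43 in F1 and -0.41 in F2, with an interaction of -0.84 (FDR = 0.00319). The synaptotagmin SYT17 was at 0.72 in F1 and -0.58 in F2 and the calcium sensor DOC2A at 0.55 in F1 and -0.41 in F2. SYP, the vesicle protein synaptophysin, stood for the larger group that differed in F1 alone. It was at 1136 ± 86.7 CPM in F1 controls (SD, n = 4) and 1641 ± 42.7 CPM in F1 sGC animals, against 1568 ± 43.05 and 1496 ± 49.3 CPM in the F2 groups (log2 fold change 0.53 (SE 0.06) in F1 and -0.07 (SE 0.06) in F2, interaction -0.60 (SE 0.08), FDR = 0.000958). STX1A, a SNARE of the presynaptic membrane, had a larger interaction, -1.23 (FDR = 0.00293), from 1.04 in F1 and -0.19 in F2. Leaving out any 1 animal gave 16 to 19 genes with an interaction. Leaving out F1 controls 2 and 3 gave 13 of 30, beside 440 of 11185 genes tested in that fit. The median interaction of the list was -0.58 with all animals. It was -0.69 to -0.38 over the 11 fits with other settings or with 2 or 3 F1 controls omitted.

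Among GABA-A receptor subunits, which form the chloride channels of fast inhibition, 5 of 11 tested had an interaction, all lower in F2, and the medians were 0.28 in F1 and -0.13 in F2. GABRA3 was among the reversed genes. GABRA3 stood at 279, 237, 237 and 240.0 CPM in the F1 controls and at 439.6, 423, 346 and 385 CPM in the F1 sGC animals. In F2, its levels were 449.9, 468, 512 and 441 CPM in the controls and 382, 383, 405 and 324 CPM in the sGC animals. GABRA3 was higher in all F1 sGC animals and lower in all F2 sGC animals, and the F2 controls were above every F1 animal (log2 fold change 0.68 (SE 0.09) in F1 and -0.32 (SE 0.09) in F2, interaction -1.01 (SE 0.12), FDR = 0.000730). GABRB2 differed in F1 only, and GABRA2 had log2 fold changes of the same sign, -0.21 in F1 and -0.41 in F2, with an interaction FDR of 0.405. The count of 5 was the same in all 16 fits that left out 1 animal and was 3 without F1 controls 2 and 3. The median interaction of these subunits was -0.46 with all animals. It was -0.48 to -0.35 over the 11 fits with other settings or with 2 or 3 F1 controls omitted. Interneuron genes had no common direction, since 4 of 18 tested had an interaction higher in F2 and 3 one lower in F2. The count of 7 was 3 without F2 control 3, F2 control 4 or F2 sGC animal 4, and 4 without F1 control 3, F1 control 4, F1 sGC animal 1 or F1 sGC animal 3. The neuropeptide NPY was at 76.1, 69.8, 68.5 and 68.99 CPM in F1 controls and 59.9, 53.95, 51.8 and 54.3 CPM in F1 sGC animals, a clear gap, and at 45.6, 45.1, 39.2 and 44.4 and 73.6, 51.3, 43.7 and 78.01 CPM in the F2 groups, which overlapped (log2 fold change -0.37 (SE 0.14) in F1 and 0.50 (SE 0.14) in F2, interaction 0.87 (SE 0.19), FDR = 0.0120). VIP, a peptide of another interneuron class, went the opposite way, 0.72 in F1 and -0.80 in F2, with an interaction of -1.52 (FDR = 0.0341). GAD2, an enzyme of GABA synthesis, was lower in both generations, by less in F2, with -0.61 in F1 and -0.21 in F2 and an interaction of 0.40 (FDR = 0.0403). The transcription factor DLX5 was lower in F1 alone (log2 fold change -1.64 (SE 0.28) in F1 and -0.03 (SE 0.30) in F2, interaction 1.61 (SE 0.41), FDR = 0.0211). DLX5 was at 14.1, 6.39, 7.04 and 12.35 CPM in F1 controls, so that F1 controls 1 and 4, highest for striatal genes, were also highest here. The part of striatal tissue in this result was not tested. The potassium channel KCNC2 was higher in F1 alone, with an interaction of -0.79 (FDR = 0.0225). PVALB and SST, which define the larger interneuron classes, had interactions of -0.24 (FDR = 0.795) and 0.08 (FDR = 0.894).

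Upper-layer pyramidal genes had medians of 0.34 in F1 and -0.42 in F2. Of 12 tested, 3 (25%) had an interaction, beside 13.8% of all genes, and all 3 were lower in F2. Besides MEF2C, LMO4 was reversed and separate in both generations. LMO4 had levels of 346, 279, 292 and 326 CPM in the F1 controls and 484, 384, 504 and 508 CPM in the F1 sGC animals. The F2 controls were at 286, 286, 305 and 285 CPM and the F2 sGC animals at 234, 251, 235 and 234 CPM. LMO4, a LIM-domain cofactor of transcription, varied little within the F2 groups (log2 fold change 0.60 (SE 0.08) in F1 and -0.28 (SE 0.08) in F2, interaction -0.88 (SE 0.12), FDR = 0.000958). RASGRF2, an exchange factor for RAS, was at 0.55 in F1 and -0.93 in F2, so that its larger difference was in F2, and its interaction was -1.48 (FDR = 0.0187). SLC17A7, described above, was lower in F1 controls 2, 3 and 4 than in every F1 sGC animal. F1 control 1, at 1009 CPM, was above F1 sGC animal 3, at 898 CPM. The part of SLC17A7 in these results was not tested. Leaving out F1 control 1 gave 5 genes with an interaction and leaving out F1 controls 2 and 3 gave 2. Deep-layer genes had medians above 0 in both generations, 0.37 and 0.51, and 2 of 16 (12.5%) had an interaction, in opposite directions, a share near the 13.8% of all genes. In 10 of the 16 fits that left out 1 animal 1 gene passed, and without F2 control 3 none did in edgeR's test. BCL11B, a transcription factor of subcortical projection neurons that striatal neurons also express, was at -0.35 in F1 and 0.54 in F2 and CRYM at 1.00 in F1 and 0.04 in F2.

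Of 27 voltage-gated channel genes, 5 (18.5%) had an interaction, all lower in F2, a share near the 13.8% of all genes. KCNH1, a potassium channel, and CACNA2D1, an auxiliary calcium channel subunit, were reversed. KCNH1 was at 110.3, 91.9, 102 and 106 CPM in F1 controls and 140.1, 139, 157 and 137 CPM in F1 sGC animals, and at 136, 124, 146 and 136 and 129.7, 124, 109 and 100 CPM in the F2 groups (log2 fold change 0.48 (SE 0.08) in F1 and -0.22 (SE 0.08) in F2, interaction -0.71 (SE 0.12), FDR = 0.00307). The F1 groups were separate and the F2 groups overlapped. CACNA2D1 was at 0.34 in F1 and -0.32 in F2, with an interaction of -0.65 (FDR = 0.0133), and the sodium channel SCN2A was higher in F1 alone, with -0.67 (FDR = 0.00622). Without F1 control 1 the count was 9. Glutamate receptors had 2 of 18 genes with an interaction, GRIA3 at -0.36 (FDR = 0.0143) and GRM2 at -1.32 (FDR = 0.0358), a share below that of all genes. For the NMDA receptor subunit GRIN2A the interaction was -0.80 (FDR = 0.112). Of 23 postsynaptic genes 4 (17.4%) had an interaction, again near the share of all genes, and the scaffold DLG3 was reversed, at 0.24 in F1 and -0.20 in F2 with -0.44 (FDR = 0.0339). IQSEC2 and HOMER3, also of the postsynaptic density, had interactions of -0.58 (FDR = 0.0434) and 0.30 (FDR = 0.0415). The postsynaptic count was 0 without F1 control 3, without F2 control 3 and without F2 control 4, and 8 without F1 control 1, and it was beyond 1.5 times in 15 of 16 such fits, all but that without F2 sGC animal 3. The glutamate receptor count was 4 without F1 control 1 and 1 in 10 of the fits.

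In glucocorticoid signalling, neither receptor gene differed between generations in its response. NR3C1 was at 84.4 ± 3.59 CPM in F1 controls (SD, n = 4), 77.9 ± 5.31 CPM in F1 sGC animals, 83.02 ± 11.2 CPM in F2 controls and 78.2 ± 8.21 CPM in F2 sGC animals. Its interaction was 0.03 (FDR = 0.903) and that of NR3C2 -0.03 (FDR = 0.926), with all groups overlapping. Among receptors and cofactors, 4 of 12 tested genes (33.3%) had an interaction, all lower in F2, beside 13.8% of all genes. CRHR2, a receptor of the corticotropin-releasing hormone family, was at 26.9, 14.7, 19.4 and 24.1 CPM in F1 controls and 22.8, 22.99, 38.1 and 29.4 CPM in F1 sGC animals, which overlapped. In F2 its controls were at 31.5, 30.3, 31.4 and 30.2 CPM, above all sGC animals at 23.6, 23.6, 20.8 and 25.4 CPM (log2 fold change 0.41 (SE 0.17) in F1 and -0.40 (SE 0.17) in F2, interaction -0.81 (SE 0.24), FDR = 0.0357). NCOR1, a corepressor of nuclear receptors, was reversed over a smaller range, 0.15 in F1 and -0.18 in F2, with -0.33 (FDR = 0.0360). The chaperone HSP90AA1, which holds the receptor ready for ligand, was higher in F1 alone, with -0.29 (FDR = 0.0471). The count of 4 was 0 when F1 control 2, F1 control 3, F2 control 2, F2 control 3, F2 control 4 or F2 sGC animal 4 was left out, and was lower by more than 1.5 times in 14 of 16 fits, all but those without F1 control 1 or F1 control 4. Known targets of the receptor included 2 of 15 genes (13.3%) with an interaction, near the 13.8% of all genes. That count was 1 without F1 sGC animal 1, F1 control 2 or F2 control 3, 4 without F2 sGC animal 3 and 4 with DESeq2. ZBTB16, a transcription factor induced by glucocorticoids in many tissues, was reversed and separate in both generations. It was at 34.4, 28.7, 33.5 and 34.1 CPM in F1 controls and 44.3, 56.8, 35.6 and 35.6 CPM in F1 sGC animals. In F2 the controls were at 56.8, 58.7, 69.3 and 58.96 CPM and the sGC animals at 39.2, 54.5, 33.5 and 55.5 CPM, so the F2 sGC animals had levels close to the F1 sGC animals (log2 fold change 0.40 (SE 0.16) in F1 and -0.42 (SE 0.16) in F2, interaction -0.81 (SE 0.23), FDR = 0.0309). TIPARP was lower in F1 alone, with 0.56 (FDR = 0.0139). The classical targets FKBP5 and TSC22D3 had interactions of -0.12 (FDR = 0.667) and 0.00 (FDR = 0.997). Of 15 immediate early genes, 0 had an interaction in edgeR's test, in DESeq2 or in any fit that left out 1 animal, 1 had an unadjusted p under 0.05, and JUNB was at 0.63 (FDR = 0.101).

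Genes of the protein synthesis machinery and of the cell matrix shifted less than those of myelin. All 37 ribosomal protein genes tested were lower in F1 and 36 were higher in F2, with medians of -0.23 and 0.08, and 14 had an interaction, all higher in F2. RPL22 alone was reversed, with levels of 71.8, 74.3, 73.4 and 74.6 CPM in F1 controls and 68.6, 63.7, 60.2 and 64.4 CPM in F1 sGC animals. Its F2 groups were at 61.6, 68.4, 61.5 and 66.5 CPM and 69.5, 74.2, 70.97 and 83.9 CPM, again without overlap (log2 fold change -0.20 (SE 0.06) in F1 and 0.21 (SE 0.06) in F2, interaction 0.41 (SE 0.09), FDR = 0.0115). RPL28 and RPS15 had interactions of 0.62 (FDR = 0.0128) and 0.56 (FDR = 0.0128). The count of 14 was 6 without F1 control 3 or F2 control 3, beyond 1.5 times in 8 of 16 such fits, and 1 without F1 controls 2 and 3. Ribosomal protein genes have many processed copies, and whether reads were shared among these is not given. Of 29 matrix and integrin genes, 9 had an interaction higher in F2, and COL8A1, a collagen, one lower in F2. ITGA6, the laminin-binding integrin subunit, was reversed and separate in both generations (log2 fold change -0.45 (SE 0.08) in F1 and 0.21 (SE 0.08) in F2, interaction 0.66 (SE 0.12), FDR = 0.00426). SPARC, a secreted glycoprotein of astrocytes and vessels, was lower in F1 alone, with 0.54 (FDR = 0.0117), and COL8A1 was at 1.05 in F1 and 0.25 in F2. The matrix count of 10 was 4 without F1 sGC animal 1, F1 control 3 or F2 control 3, and lower by more than 1.5 times in 9 of 16 such fits.

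Vacuolar ATPase subunits, which acidify vesicles and lysosomes, had 5 of 13 genes with an interaction, all lower in F2, and none was reversed. ATP6V1A was at 435 ± 25.9 and 605 ± 49.9 CPM in the F1 control and sGC animals (SD, n = 4), and at 570.2 ± 31.9 and 535 ± 46.7 CPM in those of F2 (log2 fold change 0.47 (SE 0.07) in F1 and -0.09 (SE 0.07) in F2, interaction -0.57 (SE 0.10), FDR = 0.00517). The difference thus lay in F1. The count of 5 was 9 without F2 sGC animal 3, 2 without F1 controls 2 and 3, and 0 of 13 in edgeR's test without F1 control 4 as well. ATP6V0D1 and ATP6V1C1 had interactions of -0.34 (FDR = 0.0207) and -0.35 (FDR = 0.0107). Chromatin modifiers had 7 of 31 genes (22.6%) with an interaction, in both directions, beside 13.8% of all genes. The deacetylase HDAC11, which oligodendrocytes express, was reversed at -0.22 in F1 and 0.23 in F2. HDAC1 was lower in F1 alone and HDAC9 lower in F2 alone, with interactions of 0.65 (FDR = 0.0155) and -0.73 (FDR = 0.0218). The chromatin count was 2 without F2 control 3, 3 without F1 control 3 or F2 sGC animal 4, and 4 without F2 control 1 or F2 control 2. Of 22 chaperone genes 4 (18.2%) had an interaction, near the 13.8% of all genes, and the count was 2 in 8 of the 16 fits that left out 1 animal. Among them were the vesicle-associated DNAJC6 at -0.49 (FDR = 0.00293) and DNAJC5 at -0.40 (FDR = 0.00616), and HSPA4L at -0.35 (FDR = 0.0366). Cholesterol synthesis had 2 of 22 and oxidative phosphorylation 1 of 37, shares below that of all genes. With 1 animal left out these counts were 0 to 3 and 0 to 4. The regulators SREBF1 and SREBF2 were at 0.75 (FDR = 0.0350) and -0.27 (FDR = 0.0496), in opposite directions, and the respiratory subunit NDUFA2 at 0.32 (FDR = 0.0279). Choroid plexus, meninges and blood markers had 1 of 9, PTGDS at 0.72 (FDR = 0.0242), which oligodendrocytes and meninges both express. Markers of the paraventricular nucleus had 0 of 5 in edgeR's test, where 1 had an unadjusted p under 0.05, and 1 in DESeq2, with POMC at 0.76 (FDR = 0.0543).

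**Figure D4:**
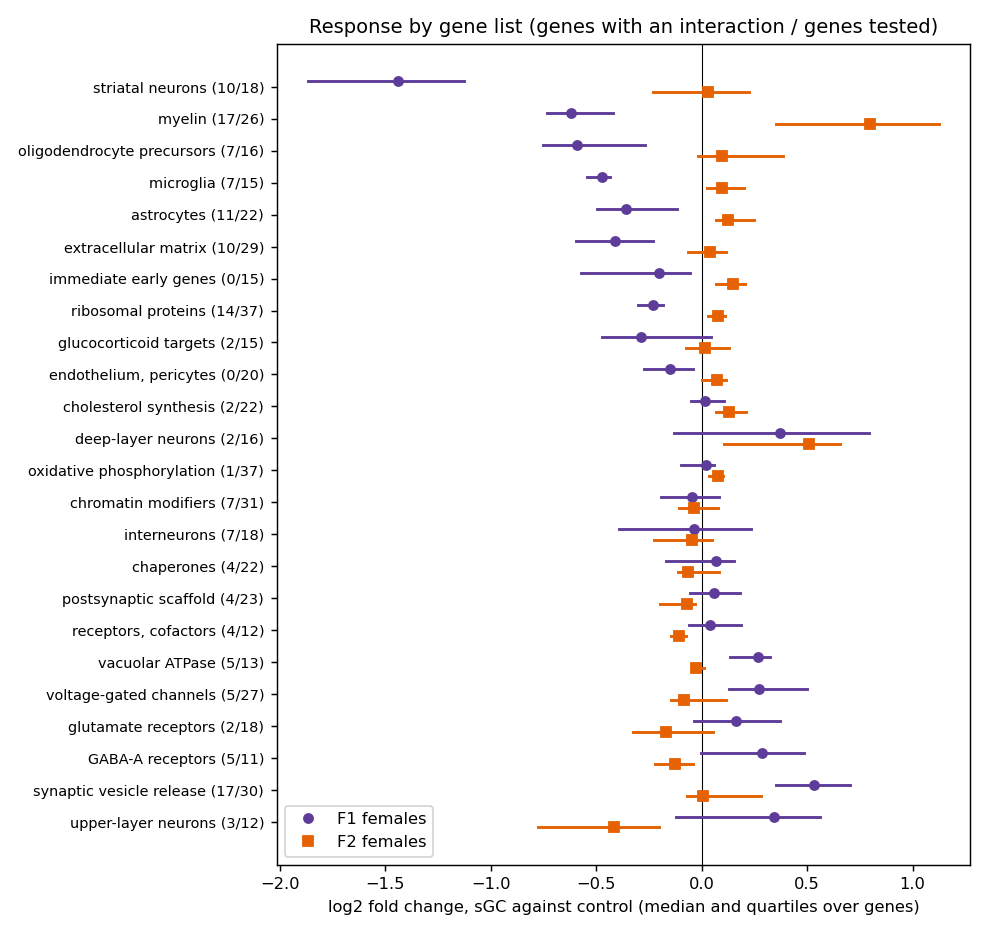
Median log2 fold change of sGC against control animals in F1 (circles) and F2 (squares) for 24 gene lists, with lines for the quartiles over genes, and in brackets the genes with an interaction of those tested. Myelin lies at -0.62 in F1 and 0.80 in F2, upper-layer genes at 0.34 and -0.42, and synaptic vesicle genes at 0.53 and 0.01.

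Not every gene with a difference in both generations was reversed. Beside the 397 genes with an unadjusted p under 0.05 in each generation and opposite signs, 242 had the same sign in both (2.17%), 92 lower and 150 higher in sGC animals. Of 16 genes that the study names from these animals, 12 were lower in F1 and 15 in F2, a list chosen on these samples and so no independent evidence of direction. Pdyn, the precursor of the opioid peptide dynorphin, was at 103, 33.2, 41.2 and 78.2 CPM in F1 controls and 16.8, 25.3, 11.8 and 30.97 CPM in F1 sGC animals. In F2 it was at 20.9, 45.6, 76.8 and 63.3 and 15.8, 35.7, 6.64 and 7.14 CPM, again lower with sGC, though sGC animal 2 was above control 1 (log2 fold change -1.60 (SE 0.51) in F1 and -1.67 (SE 0.53) in F2, interaction -0.07 (SE 0.72), FDR = 0.961). CALB1, a calcium buffer, was at -1.59 in F1 and -1.05 in F2, and KRT80 at -2.16 in F1 and -1.29 in F2, with interaction FDRs of 0.474 and 0.420. GPR52, GLRA3, ARPP21, C9orf116, SOWAHA and VSTM2L were also lower in both generations, and their interactions did not pass the threshold (FDR 0.242 to 0.992). In F1 controls CALB1 was at 158, 39.7, 67.6 and 124 CPM and KRT80 at 56.75, 9.52, 16.6 and 45.4 CPM. For these genes and Pdyn alike, F1 controls 1 and 4, highest for striatal genes, were above F1 controls 2 and 3. The part of those animals in the F1 decreases was not tested. ATP6AP1L differed from these genes in the direction of its response. It was at 103, 53.99, 51.2 and 62.7 CPM in F1 controls and 106, 118, 145 and 181 CPM in F1 sGC animals, and at 157, 134, 171 and 144 and 125, 129, 106 and 109 CPM in F2. Its groups were separate in F1 and in F2, in opposite directions, but its p in F2 was above 0.05 (log2 fold change 1.02 (SE 0.20) in F1 and -0.37 (SE 0.19) in F2, interaction -1.38 (SE 0.28), FDR = 0.00728).

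The opposite signs came with a crossing of levels between generations. For genes lower in F1 and higher in F2, control means were lower in F2 than in F1 for 205 of 212, and sGC means higher in F2 for 190. For the genes of the other direction, control means were higher in F2 for 168 of 179 and sGC means lower in F2 for 157. Over all genes tested, control means were lower in F2 for 52.5% and sGC means for 49.7%. The medians of the log2 ratio of F2 to F1 were -0.57 in controls and 0.32 in sGC animals for the first set, and 0.36 and -0.13 for the second, so that the medians of the controls differed between generations by more than those of the sGC animals. The rule that chose the genes favours such a pattern, and generation cannot be told apart from any other difference between the 2 deposited tables.

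Both sets were then read in the F3 females (4 control and 4 sGC) and F1 males (5 control and 6 sGC), which the rule did not use. In F1 males, 195 of 207 tested genes of the set lower in F1 and higher in F2 females were higher in sGC animals, and 110 had an FDR under 0.05 (edgeR's quasi-likelihood test), beside 5.94% of all genes tested there. Of the set higher in F1 and lower in F2 females, 171 of 176 were lower in F1 males, and 48 had an FDR under 0.05, beside 3.53% of all genes. Their median log2 fold changes were 0.37 and -0.15, the signs of the F2 females. In F3 females, 66 of 207 genes of the first set were lower and 141 higher, and 55 of 176 of the second were lower and 121 higher, with medians of 0.09 and 0.05. None had an FDR under 0.05 there in edgeR's test, beside 1.11% of all genes tested with higher and 0.274% with lower levels in sGC animals, while 8 genes of the first set were lower and 4 higher at an unadjusted p under 0.05, and 1 and 27 of the second. The medians of the sets thus had the same sign in F3, where 51.7% of all genes tested were lower. Whether these tables differ from each other in the response of these sets was not tested.

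**Figure D5:**
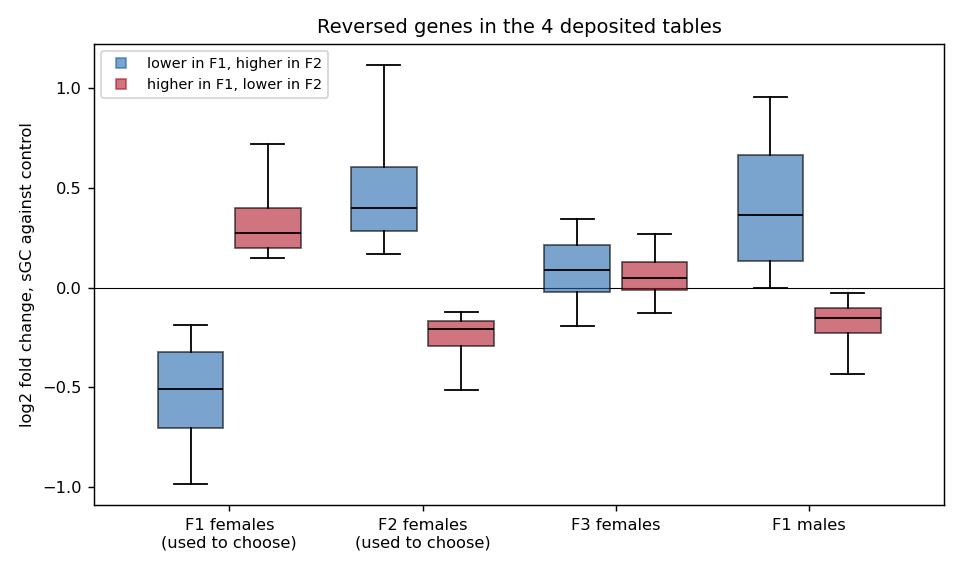
Log2 fold change of sGC against control animals over the 212 genes lower in F1 and higher in F2 females (blue) and the 179 genes of the other direction (red), in each table. Boxes give the quartiles, the line the median and whiskers the 5th and 95th percentiles over genes. The F1 and F2 female values chose the genes. F1 males have medians of 0.37 and -0.15, and F3 females of 0.09 and 0.05.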

How the data were processed

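mPFC RNA of 16 female guinea pigs was compared, 4 per group, grouped by the labels' generation and treatment. Libraries had been made with a TruSeq mRNA kit, which does not mark strand, and sequenced as single reads. TopHat2 and edgeR are named in the submitters' processing notes. The read counter, genome build and annotation are not given in the sources used here, so reads of overlapping or near-identical genes cannot be told apart. The authors deposited whole-number read counts per gene symbol, 1 table per generation and sex, without normalization. In the same tables the authors deposited log2 fold changes and log2 CPM values, a likelihood ratio score, a p-value with its FDR and a further score, all from their own comparisons, and none of these were used. Some symbols appear in the form of dates and were left as listed.

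Counts of the symbols in both female tables were fitted together with edgeR 4.0.16 in R 4.3.3 (filterByExpr with minimum count 10 and minimum total count 15, TMM, quasi-likelihood F-test, two-sided, Benjamini-Hochberg adjustment over 11166 genes, threshold 0.05), and the interaction was the F2 difference minus the F1 difference. The study's methods name the likelihood ratio test, which was run as an alternative. The quasi-likelihood test allows for uncertainty in the dispersion. Reversed genes also needed an unadjusted p under 0.05 in each generation. Levels are TMM-normalized CPM. The scripts were tested on simulated data. Samples labelled as replicates were separate animals, and within groups log2 levels correlated at 0.978 to 0.996, and every pair differed by more than sampling noise, so that each was counted as 1 animal.

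The members and the 27 gene lists, written from general knowledge, were chosen with earlier results of these data known. The named genes were the 5 with the largest interaction in each direction among reversed genes with separate groups in both generations and at least 5 CPM, up to 3 genes of each list by smallest interaction p (1 where none passed), genes named by the study, and NR3C1 and NR3C2. Other genes named here, such as further reversed members of a list, SLC17A7, FKBP5, TSC22D3, PVALB and SST, were chosen after their values were seen. Alternatives were the likelihood ratio test, DESeq2 1.42.0, RLE, upper-quartile and within-table normalization, no filter, CPM above 1 in at least 4 animals, stricter thresholds, a replicate block and the omission of each animal. Library totals of 12819964 to 17052339 reads limit precision for genes with few reads. Promoter sequences were not analysed here, and some genes that the rule or the lists hold are counted but not reported here by name.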

Additional observations from a re-analysis of the deposited data

Results flagged for a closer look

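Among the groups of 4 animals examined, 384 in all for the named genes reported here and the cell type lists, 21 held 1 animal whose gap to the nearest of the others, as a share of the range, exceeded Dixon's critical value at the 95% level. This is 5.47% of the groups, and chance alone puts about 1 group in 20 past that value. In the F1 controls, 1 animal was far above the rest for GABRA3 (279 CPM, the others 237 to 240.0), GRIA3 (139 CPM, the others 126 to 127) and NPY (76.1 CPM, the others 68.5 to 69.8). In the F1 controls, 1 animal was far below the rest for ZBTB16 (28.7 CPM, the others 33.5 to 34.4). In the F1 sGC animals, 1 animal was far above the rest for KCNH1 (157 CPM, the others 137 to 140.1), KRT80 (12.3 CPM, the others 5.06 to 5.81) and OLIG2 (43.6 CPM, the others 38.01 to 38.6). In the F1 sGC animals, 1 animal was far below the rest for POMC (5.41 CPM, the others 6.17 to 6.26), PTGDS (541 CPM, the others 732 to 758), SREBF2 (377 CPM, the others 439 to 450.0) and the summed choroid, meninges and blood list (595 CPM, the others 798 to 809.7). In the F2 controls, 1 animal was far above the rest for FAM222A (19.6 CPM, the others 15.9 to 16.3), LMO4 (305 CPM, the others 285 to 286) and MOB3B (25.7 CPM, the others 23.4 to 23.7). In the F2 controls, 1 animal was far below the rest for CALB1 (27.9 CPM, the others 47.1 to 51.0), COL8A1 (17.4 CPM, the others 19.8 to 20.3) and GPR37L1 (214 CPM, the others 243 to 248). In the F2 sGC animals, 1 animal was far above the rest for LMO4 (251 CPM, the others 234 to 235), SH3GL2 (444 CPM, the others 383 to 392) and SREBF1 (42.1 CPM, the others 31.2 to 31.99). In the F2 sGC animals, 1 animal was far below the rest for KCNK10 (6.57 CPM, the others 7.996 to 8.28).

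The response to sGC differed between F1 and F2 females, by the interaction test, for 1536 genes, with 212 reversed from lower to higher and 179 from higher to lower. The same test passed for 69 of the named genes reported here, whose interactions are the F2 minus the F1 difference on the log2 scale. For genes with separate groups in both generations the interaction was -1.30 for C5orf49, 0.95 for CDK2AP2, 1.46 for FAM222A, -1.21 for KCNK10 and -1.48 for MEF2C. For genes with separate groups in both generations it was 1.18 for MOB3B, 1.64 for PRIMA1, -1.03 for SYN2, 1.00 for TMC6 and -2.11 for Tacr3. For myelin it was 1.82 for ANLN, 2.17 for HAPLN2 and 1.98 for MOG. For oligodendrocyte precursors it was 0.86 for CACNG4, 1.36 for NKX2-2 and 1.22 for OLIG2. For astrocytes it was 0.72 for GPR37L1, 0.64 for HEPACAM and 0.57 for NDRG2. For microglia it was 0.79 for GPR34, 1.07 for GPR84 and 0.78 for ITGB2. For striatal neurons it was 1.71 for DRD1, 2.15 for GNG7 and 2.36 for TAC1. For upper-layer neurons it was -0.88 for LMO4 and -1.48 for RASGRF2. For deep-layer neurons it was 0.89 for BCL11B and -0.96 for CRYM. For interneurons it was 1.61 for DLX5, -0.79 for KCNC2 and 0.87 for NPY. For choroid plexus, meninges and blood it was 0.72 for PTGDS. For GABA-A receptors it was -1.01 for GABRA3. For glutamate receptors it was -0.36 for GRIA3 and -1.32 for GRM2. For synaptic vesicles it was -0.93 for SH3GL2 and -0.60 for SYP. For the postsynaptic scaffold it was -0.44 for DLG3, 0.30 for HOMER3 and -0.58 for IQSEC2. For voltage-gated channels it was -0.65 for CACNA2D1, -0.71 for KCNH1 and -0.67 for SCN2A. For glucocorticoid targets it was 0.56 for TIPARP and -0.81 for ZBTB16. For receptors and cofactors it was -0.81 for CRHR2, -0.29 for HSP90AA1 and -0.33 for NCOR1. For cholesterol synthesis it was 0.75 for SREBF1 and -0.27 for SREBF2. For oxidative phosphorylation it was 0.32 for NDUFA2. For the vacuolar ATPase it was -0.34 for ATP6V0D1, -0.57 for ATP6V1A and -0.35 for ATP6V1C1. For ribosomal proteins it was 0.41 for RPL22, 0.62 for RPL28 and 0.56 for RPS15. For the extracellular matrix it was -0.80 for COL8A1, 0.66 for ITGA6 and 0.54 for SPARC. For chaperones it was -0.40 for DNAJC5, -0.49 for DNAJC6 and -0.35 for HSPA4L. For chromatin modifiers it was 0.65 for HDAC1, 0.45 for HDAC11 and -0.73 for HDAC9. For genes named by the study it was -1.38 for ATP6AP1L and 0.40 for GAD2.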

How the results depend on the processing

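Across the likelihood ratio test (1723), DESeq2 (1866), RLE (1563), upper-quartile (1528) and within-table TMM normalization (1499), no filter (1562) and CPM above 1 (1587), the number of genes with an interaction stayed within 1.5 times 1536. Which reversed direction held more genes depended on the scaling, since the 212 and 179 genes became 194 and 203 with RLE and 197 and 209 with DESeq2. Leaving out 1 animal gave 808 (without F2 control 3) to 1906 (without F1 control 1) interactions, 111 to 297 genes reversed from lower to higher and 93 to 230 from higher to lower, with the same animals at both ends. Without F2 sGC animal 4 these were 923, 126 and 99, without F1 control 3 there were 946 interactions and 131 genes reversed from lower to higher, and without F1 control 2 the latter were 136. An interaction FDR under 0.01 left 302 genes, 48 and 73 of them reversed. A p under 0.01 in each generation left 36 and 42 reversed genes, opposite signs alone gave 706 and 663, and non-overlapping groups in both generations 36 and 55.

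In alternatives chosen after seeing the data, omitting F1 controls 1 and 4 gave 1967 interactions and 322 and 258 reversed genes, omitting F1 controls 2 and 3 gave 440, 54 and 85, and omitting F1 controls 2, 3 and 4 gave 153, 26 and 22. The last leaves 1 F1 control, assumed to vary like the other groups. Fewer animals enter these fits, and the cause was not tested further. No pairing of the animals by replicate number was seen, in a check on few animals that cannot exclude one. Same-numbered animals of a generation had correlated deviations of -0.32 to 0.37, and 1 of 8 controls correlated best with the sGC animal of its own number. A replicate block gave 1067 interactions and 199 and 123 reversed genes.

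All 71 named genes with an interaction kept its sign in every fit, and 52 passed in all 16 fits that left out 1 animal. Without F1 controls 2 and 3, 37 of the 71 passed, and without F1 controls 1 and 4, 65 did. Most of the 71 were chosen for a small p or a large interaction in these same animals, so a kept sign is no independent evidence. Among the named genes without an interaction that passed, its sign turned in some fits. Without F1 controls 1 and 4 it was -0.16 for ARPP21, -0.0236 for C9orf116, -0.33 for CALB1, -1.16 for GLRA3, -0.55 for GPR52, -0.44 for KRT80, -0.0359 for NR3C1 and -0.19 for VSTM2L. Without F1 controls 2 and 3 it was 0.0397 for NR3C2 and 0.42 for Pdyn, and 0.0826 and 0.60 without F1 control 4 as well. GLRA3 was at -6e-04 with DESeq2 and -0.14 with the replicate block, and NR3C2 at 0.011 with upper-quartile normalization. Leaving out 1 animal gave ranges of -0.60 to 0.40 for GLRA3, -0.14 to 0.51 for GPR52, -0.0497 to 0.12 for NR3C1, -0.16 to 0.0591 for NR3C2, -0.78 to 0.18 for Pdyn and -0.0733 to 0.25 for VSTM2L. In F3 females, 68.8% of the genes higher in F1 and lower in F2 had the sign of F1, and 58.5% with upper-quartile normalization. The motif search in promoters was not run, because no promoter sequences were used here. At these depths, differences in genes with few reads, such as GLRA3 at 0.279 to 6.13 CPM, were not detectable unless large.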

Other observations

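Among the 91 reversed genes with separate groups in both generations, the following, outside the lists, were chosen after their values were seen and stand for no group of genes. AMPH, an amphiphysin that works with endophilins in vesicle endocytosis, had log2 fold changes of 0.74 in F1 and -0.24 in F2 (interaction -0.97, FDR = 0.000511 in edgeR's quasi-likelihood test). The vesicle protein SVOP was at 0.29 and -0.19, and the presynaptic adaptor APBA1 at 0.35 and -0.22. DPP10, an auxiliary subunit of A-type potassium channels, was at 0.66 and -0.21 (interaction -0.87). In the opposite direction, HADH, of fatty acid oxidation, was at -0.43 and 0.17, ECHDC2 at -0.60 and 0.34, and GAMT, of creatine synthesis, at -0.56 and 0.38.

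ADORA1, the inhibitory adenosine receptor, was higher in all sGC animals of both generations, with log2 fold changes of 0.45 in F1 and 0.33 in F2 (interaction -0.12, FDR = 0.571). GNAI1, an inhibitory G protein subunit, was at 0.44 in F1 and 0.22 in F2 (interaction -0.22, FDR = 0.102). Both were chosen after their values were seen, and each had an FDR above 0.05 in F2.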
